A study of Homo sapiens with 12 samples.

Results

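The transcription regulator TSC22D3 and 9 related genes were followed in MiaPaCa-2, an established cell line from a human pancreatic cancer, in which 3 genes of citrate handling had been knocked down. They are TSC22D1, TSC22D2, TSC22D3 and TSC22D4 of the TSC22 family, FOXO1, FOXO3 and FOXO4 of the FOXO family, and KLF9, PIK3IP1 and FKBP5. They were taken by symbol from a table of 70116 gene identifiers, and all 10 were among the 16197 genes tested. The set was chosen by a measured value, the height of TSC22D3 in the siACLY libraries relative to siControl, so that contrast is described here without a test for these genes.

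The 4 groups had 3 libraries each. All cells were MiaPaCa-2 transfected with small interfering RNA (siRNA), a short duplex that directs the breakdown of a matching transcript: siControl, siSLC25A1, siACLY or siACO1. SLC25A1 is the mitochondrial citrate carrier, ACLY is the lyase that makes acetyl-CoA from citrate in the cytosol, and ACO1 is the aconitase of that compartment. The series title places the question in ferroptosis under nutrient stress, and the sources used here do not give the siRNAs (their sequences, or how many there were for a target), the medium or the hours between transfection and harvest. All groups share a single cell line, and nothing says that the replicates came from separate cultures, so p-values measure only the spread between these libraries, which may be technical.

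TSC22D3, also called GILZ, is a small leucine zipper protein whose gene is a classical target of the glucocorticoid receptor and of FOXO factors, and it restrains AP-1, NF-kappaB and RAS signalling. FOXO factors are forkhead transcription factors that AKT, the kinase downstream of phosphoinositide 3-kinase (PI3K), phosphorylates and removes from the nucleus; when AKT activity is low they enter the nucleus and switch on genes of growth arrest and stress defence. KLF9 is a zinc finger repressor and FKBP5 a co-chaperone that lowers the hormone affinity of the glucocorticoid receptor, and both genes are widely used as readouts of glucocorticoid action. PIK3IP1 is a membrane protein that inhibits PI3K, and its gene is a FOXO target.

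The upstream sequences of 2 genes are shown because TSC22D3 and KLF9 had the highest siACLY levels relative to siControl among the 10 genes, and because a forkhead core motif lay before a TSC22D3 start. The sequences are from RefSeq (GRCh38.p14), minus strand, 5′ to 3′, with the forkhead core in capitals. The TSC22D3 stretch is chrX:107717136-107717312 and ends 73 bases before the start of a RefSeq transcript, where an exon of another transcript begins. The KLF9 stretch is chr9:70414658-70414907 and ends at the base before the start.
TSC22D3: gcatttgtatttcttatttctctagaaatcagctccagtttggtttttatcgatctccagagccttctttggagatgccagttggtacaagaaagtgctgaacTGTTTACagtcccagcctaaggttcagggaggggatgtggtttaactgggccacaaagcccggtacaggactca
KLF9: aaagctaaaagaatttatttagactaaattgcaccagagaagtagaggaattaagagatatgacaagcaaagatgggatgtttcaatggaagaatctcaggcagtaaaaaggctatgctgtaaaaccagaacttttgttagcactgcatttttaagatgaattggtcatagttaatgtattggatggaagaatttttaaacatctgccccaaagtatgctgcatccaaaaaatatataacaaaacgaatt

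The forkhead core TGTTTAC was searched on both strands in the 250 bases before each start, for the 9 of 10 genes with an entry; TSC22D2 had none. It was found before 1 of the 4 TSC22D3 starts, 147 to 141 bases upstream on the sense strand, and before no start of the other 8 genes. Of all 34943 starts, 2.98% held it. The glucocorticoid receptor half-site AGAACA lay before 1 of the 5 TSC22D1 starts and 1 of the 2 PIK3IP1 starts, both on the antisense strand, and before 12.4% of all starts. Its exact inverted repeat, with 3 bases between the copies, and the cAMP response element TGACGTCA (1.63% of all starts) were found before none of the starts of the 9 genes. The exact inverted repeat lay before only 1 of all 34943 starts (0.00286%), so its absence here says nothing about these genes. A match is a description of letters, not a site.

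Library totals ran from 24159424 to 43792811 counts. Levels are CPM, counts scaled to library size and adjusted by trimmed mean of M values and are given as mean ± SD with n = 3. Each target was low in its own knockdown: SLC25A1 was at 8.75% of its siControl mean in siSLC25A1, ACLY at 7.24% in siACLY and ACO1 at 3.72% in siACO1. KRT8, KRT18 and VIM were abundant, whereas KRT7 and EPCAM were near 0. The 6 markers of leukocytes, endothelium, fibroblasts, hepatocytes, acinar cells and islet cells summed to between 0.0325 and 0.456 CPM, and PTPRC, PRSS1 and INS were at 0 in all 12 libraries. In siACO1, KRT8 was 1280 CPM against 2278 CPM in siControl and KRT18 was 774 against 1325 CPM. In siSLC25A1 they were at 2011 and 1151 CPM. KRT19 was 88.5 CPM in siControl, 121 in siSLC25A1, 141 in siACLY and 52.0 in siACO1. VIM was 3561 CPM in siControl, 3843 in siSLC25A1, 4558 in siACLY and 3618 in siACO1. Differences below thus come beside lower keratin transcripts in siACO1 and beside shifts of some markers in siSLC25A1 and siACLY. The part of these markers in the differences was not tested. The library siACO1 replicate 3 stood apart from its group by chi-square. Its counts differed from the other 2 siACO1 libraries with a chi-square per degree of freedom of up to 11.3, against at most 5.37 among the other pairs within groups. By Pearson r of log2 CPM its pairs were at 0.991 and 0.992, beside 0.993 for the other siACO1 pair and 0.992 for the siSLC25A1 pairs. Fewer cells of a kind and less RNA per cell cannot be told apart in bulk RNA.

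In siControl cells the 10 genes covered a wide range of levels per kilobase of exon. TSC22D4 was highest (22.1 ± 0.277 CPM per kb, n = 3), followed by TSC22D1 (16.3 ± 0.102), FKBP5 (9.37 ± 0.126), TSC22D2 (5.70 ± 0.192), FOXO3 (2.66 ± 0.318), KLF9 (1.28 ± 0.0489), FOXO4 (0.786 ± 0.121), TSC22D3 (0.342 ± 0.0369), FOXO1 (0.145 ± 0.0221) and PIK3IP1 (0.0502 ± 0.0401). No neighbours in this order overlapped within 1 SD. TSC22D3 was thus the least abundant TSC22 gene of the control cells, in siACLY as well, where its level of 2.06 ± 0.356 CPM per kb lay beside that of KLF9 (1.88 ± 0.0346) and under that of FOXO3 (2.71 ± 0.127). The lengths are those of all annotated exons together, and which transcripts the cells used is not known.

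TSC22D3 (ENSG00000157514.18, chromosome X, 107713221 to 107777342, minus strand, GENCODE 29 on GRCh38) was low in control cells and higher in all 3 knockdowns. In siControl its level was 1.56, 1.83 and 1.5 CPM in replicates 1, 2 and 3, from 56, 66 and 42 counts. In siACLY it was 8.09, 9.85 and 11.5 CPM, from 360, 254 and 298 counts. All siACLY libraries were above all others, of which the highest, a siACO1 library, was at 3.43 CPM.

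The siACLY mean of TSC22D3 (9.81 ± 1.70 CPM, n = 3) was 601% of the siControl mean (1.63 ± 0.176). On the log2 scale TSC22D3 was higher by 2.57 (SE 0.17) in siACLY, rank 21 of 16197 genes counted from the largest rise. This is the value the set was selected on, and it has no test here. The gene just below it in that order was ENSG00000289851, with a log2 fold change of 2.53.

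The other knockdowns gave smaller differences in TSC22D3, in contrasts that share the siControl libraries with the one the rule used. In siSLC25A1 its level was 2.37, 2.98 and 3.03 CPM, and in siACO1 it was 2.82, 2.28 and 3.43 CPM. Every library of both groups lay above every siControl library. TSC22D3 rose 1.69-fold in siSLC25A1 (log2 fold change 0.76, SE 0.20, adjusted p = 0.00546 by edgeR's quasi-likelihood test) and 1.73-fold in siACO1 (0.79, SE 0.19, adjusted p = 0.00143). Both calls rest on the same 3 siControl libraries as the selection. Without siACO1 replicate 3, the siACO1 log2 fold change was 0.62 (adjusted p = 0.0167).

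The comparison of siSLC25A1 with siACO1 shares no library with the contrast used for selection. TSC22D3 differed there by a log2 fold change of -0.03 (SE 0.18, adjusted p = 0.901 by edgeR), and the libraries overlapped. The difference was 0.14 (SE 0.20) without siACO1 replicate 3. Against siSLC25A1, TSC22D3 in siACLY was higher by 1.81 (SE 0.16) on the log2 scale, and against siACO1 by 1.77 (SE 0.16). These last values share the siACLY libraries that chose the gene and are given without a test.

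**Figure D1:**
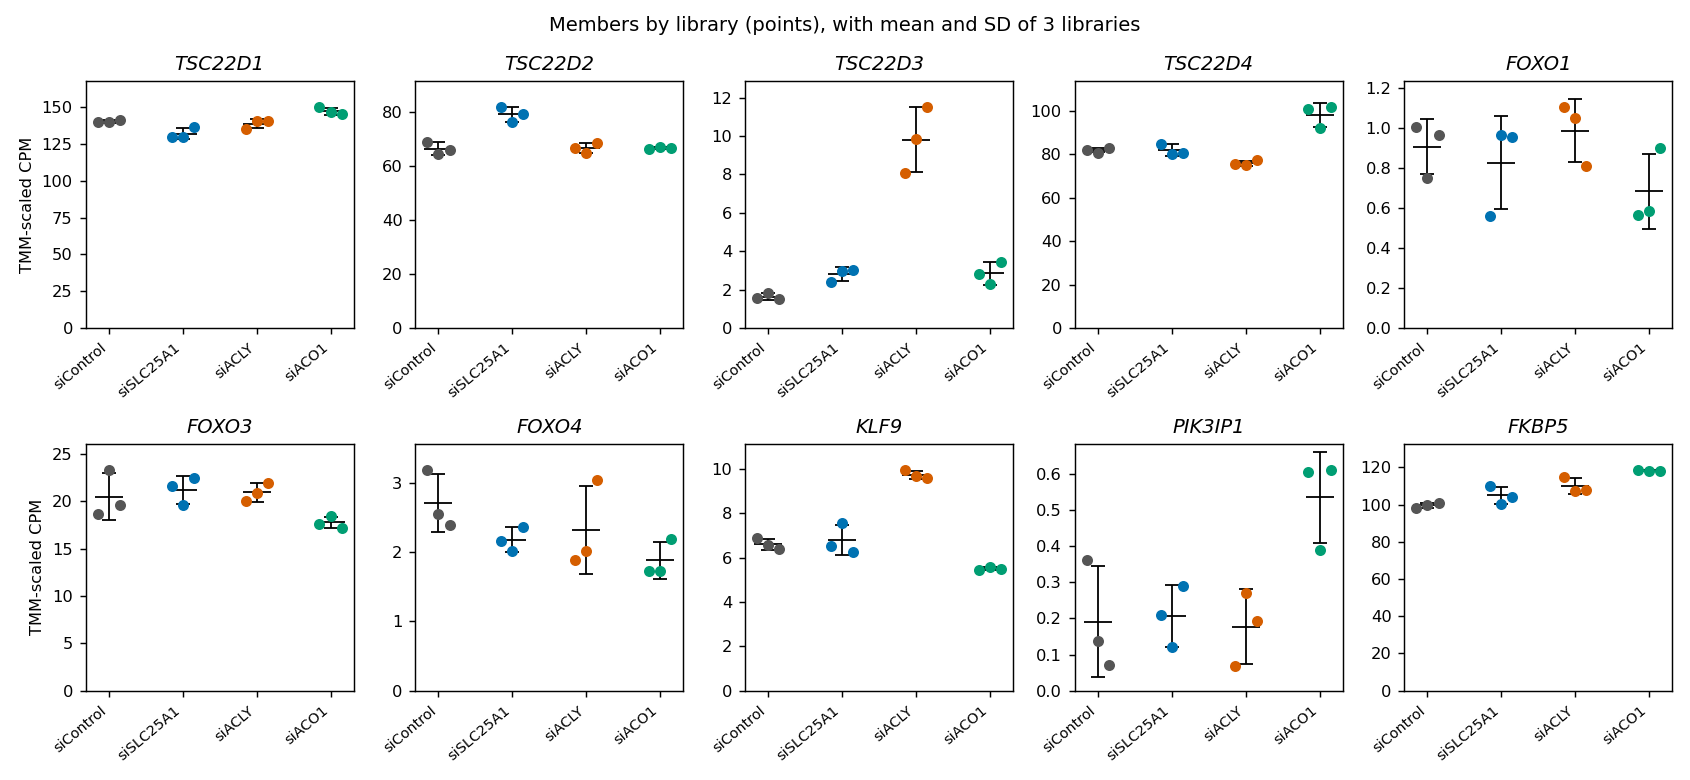
Levels of the 10 genes in CPM (vertical axes start at 0, a scale per gene) in the 4 groups on the horizontal axis; points are the 3 libraries of a group and bars are the mean with SD. TSC22D3 sits at 8.09 to 11.5 CPM in siACLY and under 3.5 CPM in every other group.

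TSC22D1 (ENSG00000102804.16, chromosome 13, 44432143 to 44577147, minus strand), a family member best known in the transforming growth factor beta response, moved little. Its level was 140, 140 and 141 CPM in siControl, 130, 130 and 136 CPM in siSLC25A1, 135, 140 and 141 CPM in siACLY and 150, 147 and 145 CPM in siACO1. The siSLC25A1 libraries were all under and the siACO1 libraries all above those of siControl, yet neither passed the test (log2 fold changes -0.09 and 0.07, adjusted p = 0.129 and 0.179 by edgeR). Between these knockdowns TSC22D1 was lower in siSLC25A1 than in siACO1, with a log2 fold change of -0.16 (SE 0.04, adjusted p = 0.00206 by edgeR). Other genes, among them its antisense partner TSC22D1-AS1, overlapped 13.1% of the TSC22D1 exon bases. TSC22D1-AS1 rose by 0.45 in siACO1 (adjusted p = 0.0170 by edgeR), and without knowledge of strand in the counting reads of the pair cannot be told apart.

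TSC22D2 (ENSG00000196428.13, chromosome 3, 150408335 to 150466431, plus strand) was, with TSC22D3, one of the TSC22 genes that passed the test in siSLC25A1. It stood at 69, 64.5 and 66.2 CPM in siControl and at 81.8, 76.5 and 79.4 CPM in siSLC25A1, a rise with a log2 fold change of 0.25 (SE 0.05, adjusted p = 0.000169 by edgeR). The siACLY libraries (65.1 to 68.6 CPM) and siACO1 libraries (66.5 to 67.1 CPM) overlapped siControl. TSC22D2 was also higher in siSLC25A1 than in siACO1 (0.25, SE 0.05, adjusted p = 7.91e-05) and lower in siACLY than in siSLC25A1 (-0.25, SE 0.05, adjusted p = 0.000116). The direct comparisons thus set siSLC25A1 above each of the other knockdowns for this gene.

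TSC22D4 (ENSG00000166925.9, chromosome 7, 100463359 to 100479279, minus strand), a family member that binds AKT and has been tied to insulin signalling, was highest in siACO1. It stood at 82.0, 80.9 and 82.9 CPM in siControl, 85.0, 80.3 and 80.8 CPM in siSLC25A1, 75.6, 74.9 and 77.3 CPM in siACLY and 101, 92.0 and 102 CPM in siACO1. The siACO1 libraries were all above and siACLY libraries all below the other groups. The rise in siACO1 had a log2 fold change of 0.26 (SE 0.05, adjusted p = 3.66e-05 by edgeR), and without siACO1 replicate 3 it was 0.23 (adjusted p = 6.49e-05). TSC22D4 was lower in siACLY than in siACO1 by a log2 fold change of -0.37 (SE 0.05, adjusted p = 1.30e-07). Against siControl the siACLY value was -0.11 (SE 0.05). By group mean, TSC22D2 was highest in siSLC25A1, TSC22D3 in siACLY, and TSC22D1 and TSC22D4 in siACO1.

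FOXO3 (ENSG00000118689.15, chromosome 6, 108559835 to 108684774, plus strand) had the highest level per kilobase of the 3 FOXO genes. FOXO3 stood at 18.7, 23.3 and 19.6 CPM in siControl, 21.6, 19.6 and 22.5 CPM in siSLC25A1, 20, 20.9 and 22 CPM in siACLY and 17.7, 18.5 and 17.2 CPM in siACO1. The siACO1 libraries lay under all others, and the other 3 groups overlapped. FOXO3 fell in siACO1 with a log2 fold change of -0.21 (SE 0.08, adjusted p = 0.0414 by edgeR), a call lost without siACO1 replicate 3 (adjusted p = 0.0859) and without siControl replicate 2, its highest control (-0.10, adjusted p = 0.359), and also lost without siACO1 replicate 1. Against siACO1 it was higher in siSLC25A1 (0.25, SE 0.08, adjusted p = 0.0125; 0.22 and 0.0631 without siSLC25A1 replicate 3) and in siACLY (0.23, SE 0.08, adjusted p = 0.0206; 0.20 and 0.0555 without siACO1 replicate 3, and also lost without siACO1 replicate 1 or siACLY replicate 3). Of the 31-base stretches in FOXO3 transcripts 34.9% also occur elsewhere, mainly in its near-copy FOXO3B, so its counts are uncertain. FOXO3B itself fell in siACO1 (-0.24, SE 0.09, adjusted p = 0.0410). With FOXO3 and FOXO3B summed, an alternative chosen after seeing the data, the siACLY against siACO1 call was lost (0.15, SE 0.07, adjusted p = 0.0668 by edgeR).

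FOXO4 (ENSG00000184481.17, chromosome X, 71096197 to 71103535, plus strand) stood at 3.18, 2.55 and 2.39 CPM in siControl, 2.16, 2.01 and 2.36 CPM in siSLC25A1, 1.89, 2.02 and 3.05 CPM in siACLY and 1.73, 1.72 and 2.18 CPM in siACO1. It was lower in siACO1 than in siControl in every library, with a log2 fold change of -0.53 (SE 0.20, adjusted p = 0.0368 by edgeR). That call was lost without siControl replicate 1 (-0.40, adjusted p = 0.192), without siControl replicate 2, and without siACO1 replicate 1 or 2. The siSLC25A1 libraries were also all under siControl, but the difference did not pass (-0.32, SE 0.20, adjusted p = 0.281).

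FOXO1 (ENSG00000150907.10, chromosome 13, 40469953 to 40666597, minus strand) rested on 14 to 49 counts per library. Its level was 1.00, 0.749 and 0.965 CPM in siControl, 0.558, 0.966 and 0.953 CPM in siSLC25A1, 1.10, 1.05 and 0.810 CPM in siACLY and 0.563, 0.585 and 0.899 CPM in siACO1. Groups overlapped, and a difference from siControl was not detectable at this depth in siSLC25A1 (-0.14, SE 0.31, adjusted p = 0.800 by edgeR) or in siACO1 (-0.39, SE 0.31, adjusted p = 0.348). FOXO factors are controlled largely by phosphorylation and location, which RNA counts do not measure.

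KLF9 (ENSG00000119138.5, chromosome 9, 70384597 to 70414624, minus strand) had its highest level in siACLY and its lowest in siACO1. It stood at 6.87, 6.58 and 6.36 CPM in siControl, 6.52, 7.57 and 6.26 CPM in siSLC25A1, 9.94, 9.66 and 9.60 CPM in siACLY and 5.43, 5.56 and 5.49 CPM in siACO1. The siACLY libraries were above and the siACO1 libraries below all others. Against siControl, KLF9 was higher by 0.56 (SE 0.10) in siACLY on the log2 scale, given without a test. KLF9 was higher in siACLY than in siSLC25A1 (0.52, SE 0.10, adjusted p = 0.000213 by edgeR) and than in siACO1 (0.83, SE 0.11, adjusted p = 1.99e-07 by edgeR). Both comparisons use the siACLY libraries that the rule used, so they are not independent of the selection. The siACO1 value against siControl was -0.27 (SE 0.11, adjusted p = 0.0548). KLF9 was higher in siSLC25A1 than in siACO1 (0.30, SE 0.11, adjusted p = 0.0295), a call lost without siSLC25A1 replicate 2 (0.22, adjusted p = 0.160) or any 1 siACO1 library.

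FKBP5 (ENSG00000096060.15, chromosome 6, 35573585 to 35728583, minus strand) was abundant and rose in siACO1. Its level was 98.3, 99.6 and 101 CPM in siControl, 110, 101 and 104 CPM in siSLC25A1, 115, 107 and 108 CPM in siACLY and 119, 118 and 118 CPM in siACO1. All siACO1 libraries were above all others. The siACO1 rise had a log2 fold change of 0.25 (SE 0.04, adjusted p = 3.95e-05 by edgeR), the same to 2 decimals without siACO1 replicate 3, and FKBP5 was lower in siSLC25A1 than in siACO1 (-0.17, SE 0.04, adjusted p = 0.00214). In siACLY it was higher than siControl by 0.15 (SE 0.04), given without a test. Of these readouts, KLF9 was highest in siACLY and FKBP5 in siACO1, and glucocorticoid action itself was not measured.

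PIK3IP1 (ENSG00000100100.13, chromosome 22, 31281593 to 31292534, minus strand) was close to absent. It had 13, 5 and 2 counts in siControl, 6, 3 and 7 in siSLC25A1, 3, 7 and 5 in siACLY and 15, 12 and 19 in siACO1, which is 0.604, 0.390 and 0.610 CPM in siACO1. It passed the filter on low counts through siACO1, the group where it was high, so its difference there supports nothing about the set. The siACO1 libraries were above all others, with a log2 fold change of 1.41 (SE 0.52, adjusted p = 0.0323 by edgeR) against siControl. That call was lost without siACO1 replicate 3 (1.29, adjusted p = 0.0901), without siACO1 replicate 1 and without siControl replicate 2 or 3. Against siACO1, PIK3IP1 was lower in siSLC25A1 (-1.35, SE 0.54, adjusted p = 0.0453) and in siACLY (-1.70, SE 0.55, adjusted p = 0.0127). The first call was lost without siACO1 replicate 1 or 3 and without any 1 siSLC25A1 library, and the second without siACLY replicate 1 (-1.19, adjusted p = 0.126).

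**Figure D2:**
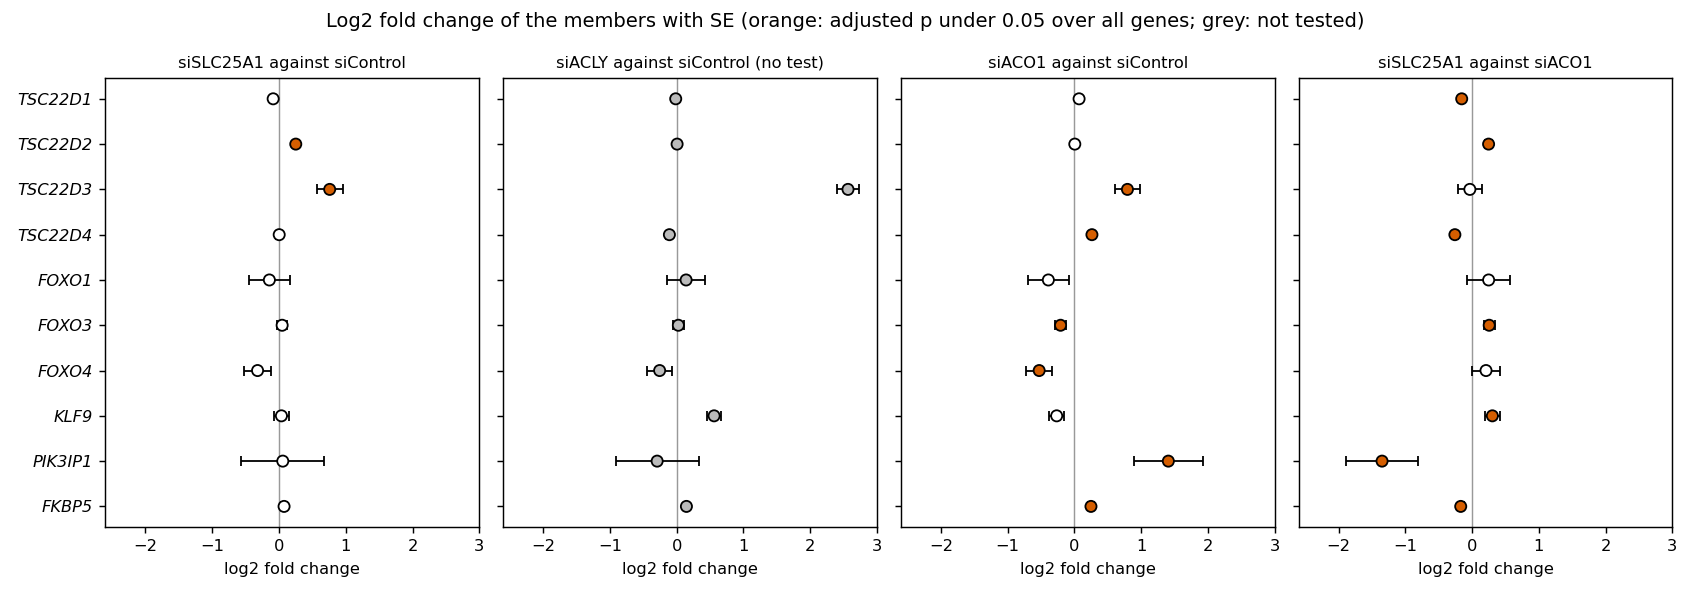
Log2 fold change with SE (horizontal axes) of the 10 genes (vertical axis) in 4 comparisons; orange marks an adjusted p under 0.05 over all genes, white marks none, and grey marks the siACLY comparison, which has no test here. TSC22D3 is at 0.76 in siSLC25A1, 2.57 in siACLY and 0.79 in siACO1, and at -0.03 between siSLC25A1 and siACO1.

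Counts of called genes are given beside the share of all tested genes called in each comparison. In siSLC25A1 against siControl 2 of the 10 genes were called, TSC22D3 and TSC22D2, where 19.6% of all tested genes were called; both rose (10.3% of all genes), and none fell (9.27%). In siACO1 against siControl, PIK3IP1 left aside because of the way it passed the filter, 5 of 9 were called, where 37.1% of all genes were: TSC22D3, TSC22D4 and FKBP5 rose (17.8% of all genes) and FOXO3 and FOXO4 fell (19.3%). In siACLY, 3 genes passed the same threshold, all higher, beside 36.7% of all genes, 18.4% higher and 18.3% lower; since the rule used this contrast nothing is read from the count. These 3 comparisons share the siControl libraries. TSC22D3 was chosen on those libraries as well, so its calls in siSLC25A1 and siACO1 are not independent of the selection.

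Between siSLC25A1 and siACO1, again without PIK3IP1, 6 of 9 genes were called, where 42.1% of all genes were. TSC22D2, FOXO3 and KLF9 were higher in siSLC25A1 (21.8% of all genes), and TSC22D1, TSC22D4 and FKBP5 were lower (20.3%). In siACLY against siSLC25A1, TSC22D3 left aside because it was chosen on the siACLY libraries, 2 of 9 passed the threshold (33.8% of all genes): KLF9 was higher (16.3%) and TSC22D2 lower (17.5%). In siACLY against siACO1, without TSC22D3 and PIK3IP1, 3 of 8 passed (42.1% of all genes): KLF9 and FOXO3 were higher (21.4%) and TSC22D4 lower (20.7%). These last comparisons use the siACLY libraries that the rule used and are not independent of the selection. Over all 10 genes, the count in siACO1 against siControl was 6, and it was 4 without siACO1 replicate 3 and 3 without siControl replicate 2 or without siACO1 replicate 1; TSC22D3, TSC22D4 and FKBP5 were called in each of those fits.

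The receptor that drives glucocorticoid induction of TSC22D3, KLF9 and FKBP5 is encoded by NR3C1. Its transcript was 59.7 ± 0.765 CPM in siControl, 56.3 ± 1.06 in siSLC25A1, 44.5 ± 2.27 in siACLY and 51.6 ± 2.06 in siACO1 (n = 3). NR3C1 fell in siACLY by 0.43 on the log2 scale (SE 0.05, adjusted p = 1.07e-07 by edgeR) and in siACO1 by 0.21 (SE 0.05, adjusted p = 0.00140), and the siSLC25A1 value was -0.08 (adjusted p = 0.269). TSC22D3 was highest in the group with the lowest NR3C1 transcript. Receptor protein and activity were not measured, and a link between these transcripts was not tested. NR3C2, the mineralocorticoid receptor, was under 1 CPM in every library, with 8, 4 and 2 counts in siControl and 9, 25 and 9 in siACLY (log2 fold change 1.74, SE 0.63, adjusted p = 0.0312). The NR3C2 libraries of these groups overlapped, and the call was lost without siACLY replicate 2 (0.89, adjusted p = 0.368) and without siControl replicate 2 or 3. NR3C2 passed the filter on low counts mainly through siACLY, the group where it was high, so this call supports nothing about the set.

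Related genes were followed in 5 lists, and each list gene named below as risen or fallen had an adjusted p under 0.05 in the edgeR fit. The lists were chosen with earlier results of these data known, and their genes were not matched to all genes in level. A list share above that of all genes is thus a description, and a response of a pathway was not tested. Of 24 glucocorticoid receptor targets, 22 were tested. In siSLC25A1 5 rose and 5 fell (median log2 fold change 0.05), in siACLY 10 rose and 5 fell (median 0.16), and in siACO1 6 rose and 10 fell (median -0.17), beside all-gene medians of -0.00, 0.01 and 0.01. Of all genes tested, 10.3% rose and 9.27% fell in siSLC25A1, 18.4% and 18.3% in siACLY and 17.8% and 19.3% in siACO1. Called in all were 45.5% of the tested list genes in siSLC25A1, 68.2% in siACLY and 72.7% in siACO1, beside 19.6%, 36.7% and 37.1% of all genes. The 10 calls in siSLC25A1 were 4 without siControl replicate 2, 6 without siControl replicate 3 and 5 without siSLC25A1 replicate 3. In siACLY, RHOB, a small GTPase, rose by 2.20 (SE 0.05, adjusted p = 5.89e-24 by edgeR), from 27.1 ± 0.195 to 125 ± 2.40 CPM, and DUSP1, a phosphatase of MAP kinases, rose by 1.11 (SE 0.07), while NFKBIA, the inhibitor of NF-kappaB, fell by 1.04 (SE 0.08). In siACO1, DUSP1 rose by 1.37 (SE 0.07), the cell cycle inhibitor CDKN1C rose by 1.58 (SE 0.35) and the transcription factor TFCP2L1 fell by 1.72 (SE 0.14). In siSLC25A1, NFKBIA fell by 0.48 (SE 0.08), the transcription factor CEBPD by 0.58 (SE 0.14) and SERPINA3, a protease inhibitor, by 0.73 (SE 0.26, adjusted p = 0.0490). The SERPINA3 call was lost without any 1 siControl or siSLC25A1 library, and its counts are uncertain because 31.8% of its exon bases overlap another gene.

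Of 24 steroid receptors, co-chaperones and coregulators, 21 were tested, and no more than 3 rose in any knockdown. In siSLC25A1 1 rose and 4 fell (median -0.07), in siACLY 3 rose and 9 fell (median -0.07), and in siACO1 none rose and 11 fell (median -0.17). That is 23.8%, 57.1% and 52.4% of the tested list genes called in the 3 knockdowns, beside 19.6%, 36.7% and 37.1% of all genes. The 5 calls in siSLC25A1 were 3 without siControl replicate 1 or 3 or without siSLC25A1 replicate 2. FKBP4, the co-chaperone that acts opposite to FKBP5 on the receptor, fell by 0.36 in siACLY (SE 0.04, adjusted p = 5.81e-08 by edgeR), where FKBP5 was higher by 0.15. The chaperone HSPA8 and the HSP90 partner CDC37 fell in siACO1 by 0.34 (SE 0.04) and 0.33 (SE 0.04). In siSLC25A1 the HSP40 protein DNAJA1 fell by 0.31 (SE 0.04), HSP90AA1 fell by 0.34 (SE 0.05) with counts shared with similar genes, and the corepressor NCOR1 rose by 0.23 (SE 0.06).

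Of 34 FOXO targets, 26 were tested. In siSLC25A1 4 rose and 6 fell (median -0.02), in siACLY 10 rose and 5 fell (median 0.15), and in siACO1 9 rose and 7 fell (median 0.06). The shares of list genes called were 38.5%, 57.7% and 61.5%, beside 19.6%, 36.7% and 37.1% of all genes. TXNIP, an inhibitor of thioredoxin and glucose uptake, rose by 1.46 (SE 0.08) in siSLC25A1, by 1.48 (SE 0.08) in siACLY and by 0.99 (SE 0.08) in siACO1. CDKN1A, the cell cycle inhibitor p21, rose by 1.63 (SE 0.19) in siSLC25A1 and by 1.52 (SE 0.18) in siACLY, and its siACO1 value was -0.29 (adjusted p = 0.342 by edgeR). GADD45A, a growth arrest gene, rose by 0.74 (SE 0.08) in siSLC25A1. The receptor ERBB3 fell by 0.76 (SE 0.16) in siACLY and by 0.55 (SE 0.16) in siACO1, the latter call lost without siControl replicate 2 (adjusted p = 0.0542), and MXI1, an antagonist of MYC, fell by 0.54 (SE 0.09) in siACO1. The means in siSLC25A1 and siACLY were 35.2 and 35.7 CPM for TXNIP and 3.91 and 3.60 CPM for CDKN1A, beside 2.79 and 9.81 CPM for TSC22D3; these list genes were not compared between the 2 knockdowns by a test here.

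**Figure D3:**
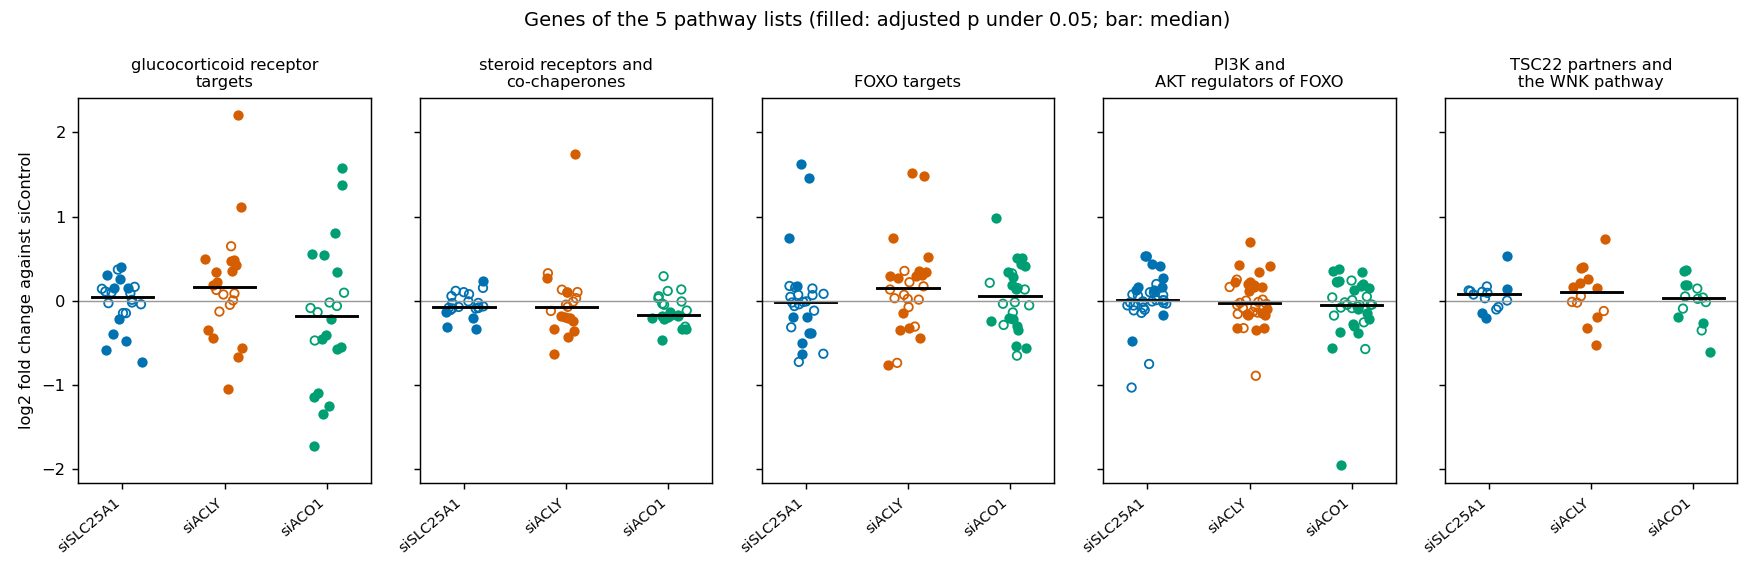
Log2 fold change against siControl (vertical axis) of the tested genes of 5 lists in each knockdown (horizontal axis). Filled points mark an adjusted p under 0.05, open points mark none, and bars mark the median. Glucocorticoid receptor targets have 10 filled points above 0 and 5 below in siACLY, and 6 above and 10 below in siACO1.

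Of 36 PI3K and AKT regulators that control FOXO factors, 34 were tested, with 8 rising and 2 falling in siSLC25A1 (median 0.01), 11 and 8 in siACLY (median -0.03) and 9 and 9 in siACO1 (median -0.05). Called were 29.4%, 55.9% and 52.9% of the list genes, beside 19.6%, 36.7% and 37.1% of all genes. The 10 calls in siSLC25A1 were 6 without siControl replicate 1 and without siSLC25A1 replicate 1 or 2. PPP2R5B, a regulatory subunit of protein phosphatase 2A, rose by 0.54 (SE 0.11) in siSLC25A1 and by 0.42 (SE 0.11) in siACLY, and the pseudokinase TRIB1 rose by 0.44 (SE 0.12) and 0.70 (SE 0.12). The TRIB1 call in siSLC25A1 was lost without siControl replicate 1 or siSLC25A1 replicate 2. PHLPP2, an AKT phosphatase, rose by 0.42 (SE 0.06) in siACLY. PIK3R1, a regulatory subunit of PI3K, fell by 0.48 in siSLC25A1 (SE 0.17, adjusted p = 0.0489 by edgeR). The PIK3R1 call was lost without siSLC25A1 replicate 2 (adjusted p = 0.250), siSLC25A1 replicate 1, or siControl replicate 1 or 3. It was also lost with median-of-ratios factors, library totals, DESeq2 or no filter, and without any 1 siACLY library or siACO1 replicate 1 or 2. In siACO1 the 14-3-3 protein SFN fell by 1.95 (SE 0.32), the deacetylase SIRT1 by 0.56 (SE 0.05) and the catalytic subunit PIK3CD by 0.38 (SE 0.10).

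TSC22 proteins bind the pseudokinases NRBP1 and NRBP2 and act in the WNK kinase pathway of cell volume control. The list of 15 genes held such partners and pathway genes, and also FLCN, FNIP1 and FNIP2. Of these, 14 were tested, with 2 rising and 2 falling in siSLC25A1 (median 0.09). In siACLY 7 rose and 3 fell (median 0.10), and in siACO1 4 rose and 3 fell (median 0.03). The list share called was 28.6% in siSLC25A1 and 71.4% in siACLY, and 7 of 14 genes were called in siACO1, beside 19.6%, 36.7% and 37.1% of all genes. The 4 calls in siSLC25A1 were 2 without replicate 2 or 3 of either siControl or siSLC25A1, and 7 without siACO1 replicate 3. STK39, the kinase that WNKs activate, rose by 0.54 (SE 0.08) in siSLC25A1, by 0.73 (SE 0.08) in siACLY and by 0.37 (SE 0.08) in siACO1. WNK2 fell by 0.20 (SE 0.05) in siSLC25A1 and by 0.61 (SE 0.05) in siACO1, and WNK4 fell by 0.52 (SE 0.14) in siACLY. NRBP1 rose by 0.36 (SE 0.04) in siACO1, NRBP2 fell by 0.14 (SE 0.05) in siSLC25A1, a call lost without any 1 library of siControl or siSLC25A1, and FLCN, a regulator of nutrient signalling, rose by 0.40 (SE 0.05) in siACLY.

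Among 469 genes with a clear spread between groups, those most like TSC22D3 over the 12 libraries were SLC45A1, with a Pearson r of 0.975, OXCT1 (0.971) and DCDC2 (0.963), followed by ENSG00000223532.10 (0.953) and ENSG00000206450.11 (0.939), which have no symbol in the table of names. These are descriptions over libraries that share the 4 groups, for a gene picked by its height in siACLY in these same data. SLC45A1, a sugar transporter, and OXCT1, the enzyme that makes ketone bodies usable, both had their highest mean in siACLY, as did DCDC2. None of the 5 reached the span of TSC22D3 on the log2 scale.

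**Figure D4:**
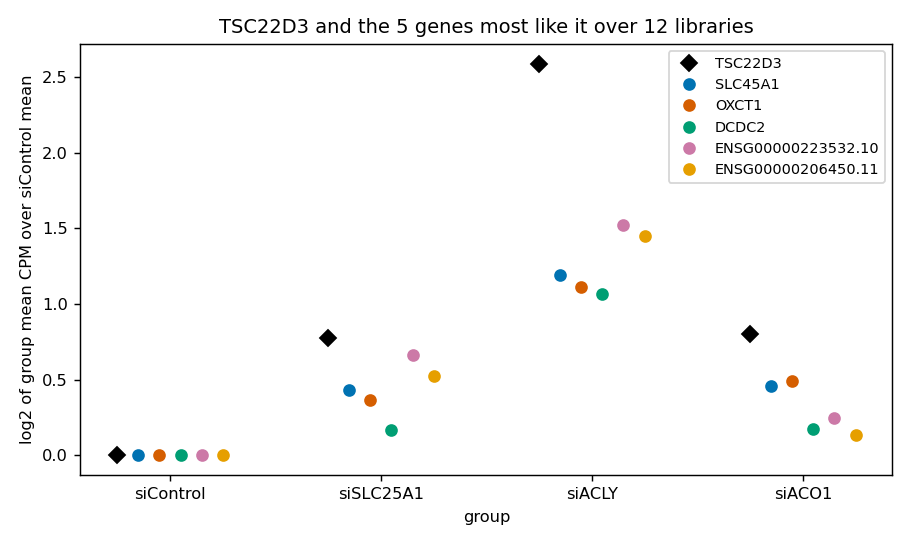
Log2 of the group mean in CPM over the siControl mean (vertical axis) for TSC22D3 (diamonds) and the 5 genes most like it (circles) in the 4 groups. In siACLY TSC22D3 is above 2.5 and the other genes lie between 1.0 and 1.6.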

How the data were processed

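The authors deposited a table of raw read counts per gene, not normalized, with 1 column for each of the 12 libraries, per the file headers and values. Per the submitters' processing notes, CASAVA, FastQC, Trim Galore, STAR 2.7.0e and DESeq2 were used, and the builds GRCh38 and GRCm39 are listed, with no role or order. The counting tool, annotation and use of strand are not given in the sources used here.

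Symbols came from a table of gene names (62700 of 70116 identifiers). Genes passing filterByExpr (16197) were fitted with edgeR 4.0.16 (R 4.3.3): all 12 libraries in 1 robust quasi-likelihood model, TMM scaling, no block, 8 residual degrees of freedom, two-sided tests, Benjamini-Hochberg adjustment over all genes, calls at an adjusted p under 0.05. The common biological coefficient of variation was 4.89%. The fit was tested on simulated data. All adjusted p-values are from it. Replicate numbers did not pair libraries (0 of 18 same-number correlations over 0.1). Positions and exon lengths are from GENCODE 29 on GRCh38; upstream sequences from RefSeq.

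The members and lists were chosen with earlier results of these data known. Named genes are the 10 members, the 3 targets, NR3C1 and NR3C2, for each list and knockdown the 3 called genes that changed most (higher group mean at least 1 CPM), and the 5 genes most like TSC22D3 by Pearson correlation of log2 CPM (prior count 2) among genes reaching 5 CPM in a group with group means spanning at least 1. Of the list genes so named, 1 is not reported here. TSC22D1-AS1, FOXO3B and the cell markers were added for counts or identity they bear on. Alternatives were median-of-ratios factors, library totals, DESeq2 1.42.0, no filter, at least 10 counts in every library, the 2 groups compared alone, each library left out, the replicate block, and, added after seeing the data, FOXO3 summed with FOXO3B.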

Additional observations from a re-analysis of the deposited data

How the results depend on the processing

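TSC22D3 kept its direction and its side of the threshold in all 19 alternatives in siSLC25A1 (log2 fold change 0.70 to 0.87, adjusted p 0.00110 to 0.0308) and in siACO1 (0.62 to 0.94, adjusted p 0.000143 to 0.0167) against siControl. Of the 1137 alternative values of the 60 log2 fold changes of the 10 genes, 1029 kept direction and call, 43 lost the call, 18 gained one and 47 changed sign. The sign changes, with those of other named genes, are given below; their cause was not tested. With library totals the value was 0.029 for TSC22D1 in siACLY, 0.017 for FOXO3 in siACLY against siSLC25A1 and 0.015 for SLC25A1 in siACLY. Without the filter it was -0.0076 for TSC22D4 in siSLC25A1 and -0.00021 for TSC22D2 in siACLY. TSC22D2 in siACLY against siACO1 gave -0.0018 with median-of-ratios factors and with DESeq2, -0.0046 with library totals and -0.0019 without the filter. FOXO3 in siACLY gave -0.066 when summed with FOXO3B, an alternative chosen after seeing the data.

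With single libraries left out, values against siControl spanned zero in siSLC25A1 for TSC22D4 (-0.024 to 0.019), FOXO1 (-0.28 to 0.086), FOXO3 (-0.020 to 0.15), KLF9 (-0.047 to 0.087), PIK3IP1 (-0.28 to 0.90) and NR3C2 (-0.54 to 0.45), in siACLY for TSC22D2 (-0.019 to 0.030), FOXO3 (-0.044 to 0.13) and PIK3IP1 (-0.75 to 0.55), and in siACO1 for TSC22D2 (-0.019 to 0.030) and NR3C2 (-0.92 to 0.85). Between knockdowns they did so for TSC22D3 in siSLC25A1 against siACO1 (-0.18 to 0.14), for FOXO3 (-0.081 to 0.013), FOXO4 (-0.17 to 0.21) and PIK3IP1 (-0.80 to 0.16) in siACLY against siSLC25A1, and for TSC22D2 in siACLY against siACO1 (-0.019 to 0.016). In siACO1 against siControl 3 of the 10 genes were called with DESeq2, and 3 to 7 with 1 library left out. FOXO3 and FOXO4 lost their siACO1 calls also with library totals (adjusted p = 0.132 and 0.0579) and DESeq2 (0.0507 and 0.0513), and PIK3IP1 with DESeq2 (0.0593) and without the filter (0.0525). Several list medians moved by over 1.5 times or changed sign. With library totals, the PI3K and AKT list turned to 0.01 in siACLY and to 0.00 in siACO1, and it was -0.00 in siSLC25A1 without the filter. The FOXO target median in siACO1 was -0.01 without the filter, -0.02 with only the 2 groups compared, 0.11 without siControl replicate 1 and 0.04 without siACO1 replicate 2. In siSLC25A1 the FOXO target median ran from -0.04 without siControl replicate 2 to 0.00 without siSLC25A1 replicate 1, the glucocorticoid target median was 0.09 without siSLC25A1 replicate 1 and 0.01 with at least 10 counts in every library, and the steroid receptor median was -0.05 and -0.03 without siSLC25A1 replicates 2 and 3. Leaving out siControl replicate 2 moved the PI3K and AKT median in siSLC25A1 to 0.03, and leaving out siSLC25A1 replicate 1 or 3 moved it to 0.02. In siACLY the FOXO target median was 0.10 without siControl replicate 3 and 0.24 without the filter, and the PI3K and AKT median was -0.05 without siACLY replicate 3. In siACO1 the latter was -0.07 without siControl replicate 2. The steroid receptor median in siACLY was -0.03 with library totals. The WNK list median in siACO1 was 0.02 without siControl replicate 1, 0.06 without siACO1 replicate 3 and 0.08 with library totals. At a minimum of 10 counts in every library PIK3IP1 was not tested.

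The replicate numbers did not pair the libraries. With the replicate number as a block the counts of called genes among the 10 were 2, 4 and 6 in siSLC25A1, siACLY and siACO1 against siControl, 6 in siSLC25A1 against siACO1, 4 in siACLY against siSLC25A1 and 6 in siACLY against siACO1, and TSC22D2 in siACLY against siACO1 was -0.0011 with the block. Low counts limit FOXO1, PIK3IP1 and NR3C2.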
